A study of Mus musculus with 2 samples.

Results

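The S100 calcium-binding proteins were followed in GIF-5, a cell line of gastric epithelium from the mouse. The family was represented by 10 genes chosen by name, S100a1, S100a4, S100a6, S100a10, S100a11, S100a13, S100a14, S100a16, S100b and S100g, out of 27670 genes with a probe on the array. The choice was made with earlier results of the same comparison in view, so the values of these 10 genes are given as a description, with no test. Each gene had 1 probe on 1 spot, and the scanner program flagged all 10 as well above background in both fractions on both arrays. The flag does not mean a bright spot, since the Cy3 signal of S100b was 1.69 and 1.47 times its local background.

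GIF-5 carries the genotype Runx3-/-p53-/-, and so do both groups compared here, since they come from this line. Cultured cells were stained for CD133, a membrane glycoprotein encoded by Prom1 that serves as a stem cell marker in various tissues, and were separated by a cell sorter according to this stain. Total RNA of CD133-positive cells (labelled with Cy3) and of CD133-negative cells (labelled with Cy5) was hybridised together on each of 2 arrays. The labels call the arrays biological replicates and do not say what they share, so the spread between them may be partly technical, and since both had the same dye orientation, a dye effect and the fraction cannot be told apart.

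S100 proteins are small, mostly dimeric proteins with a pair of EF-hands, the helix-loop-helix motif that holds a calcium ion. When calcium rises in the cell, most of them open a hydrophobic face and bind target proteins such as annexins, myosins and kinases, and several are also released and act on cell-surface receptors. S100g differs from its relatives in acting mainly as a calcium buffer and carrier in absorptive epithelia.

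Values are given on the log2 scale as the ratio of the CD133-positive to the CD133-negative signal, as the mean of both arrays ± the moderated standard error of the limma fit (n = 2), or normalised intensities in arbitrary units. Intensities are compared between the fractions for the same probe. Sums over the marker lists add different probes, so a sum, and a gene's part in it, also depends on probe brightness. Over the 15267 genes tested, the median ratio was -0.03, the median SD between the arrays was 0.18 and Pearson's r of the arrays across genes was 0.77, with genes not being independent replicates. Prom1, on whose product the cells were sorted, had a ratio of 3.78 ± 0.14. Its signal in CD133-negative cells did not clear the background, which makes the difference at least 12.0-fold and checks the labels and the dye direction.

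S100g, the intestinal calcium buffer whose synthesis is controlled by vitamin D in the gut, was the S100 gene with the largest difference. Its intensity was 14669.7 and 16721 in CD133-positive cells on arrays 1 and 2, against 239.6 and 178 in CD133-negative cells. The CD133-positive values were far above the CD133-negative values on both arrays, with no overlap. The ratio was 5.94 on array 1 and 6.55 on array 2, with a mean of 6.24 ± 0.21, a 75.8-fold difference, and it ranked 3 from the highest among all genes tested. In sorted bulk RNA, more cells that contain a transcript and more transcript per cell cannot be told apart. The bases before the annotated start of S100g are shown because no other S100 gene differed in this direction by at least 2-fold. The window lies on the minus strand at chrX:162964600-162964849 (RefSeq promoter table, GRCm38.p6), is printed 5′ to 3′ along the gene, and ends at the base before the start. Capitals mark, in order, AAGGTCA and its reverse complement TGACCTT, a nuclear receptor half-site, and GTAAACA, a forkhead motif.
S100g: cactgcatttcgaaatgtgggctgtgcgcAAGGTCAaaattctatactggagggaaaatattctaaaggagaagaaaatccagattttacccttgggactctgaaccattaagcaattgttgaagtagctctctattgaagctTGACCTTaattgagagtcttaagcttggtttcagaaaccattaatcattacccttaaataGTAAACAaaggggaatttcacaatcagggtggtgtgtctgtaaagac
The half-sites begin 221 and 107 bases before the start and the forkhead motif 47 bases before it, and a TATAAA begins at the annotated start itself. Over all 32851 promoter windows of 300 bases in the table, read on both strands, AAGGTCA occurred in 4.72%, GTAAACA in 3.65% and TATAAA in 13.6%. The motifs were chosen with the sequences in view. The 250 bases printed had a GC content of 38.4%.

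S100a4 and S100a6 lie close together on chromosome 3, with S100a5 between them, and had the lowest ratios of the 10 genes. S100a4 binds the heavy chain of non-muscle myosin and is often used as a marker of fibroblasts and of epithelial-mesenchymal transition. It had intensities of 1911 and 3024 in CD133-positive cells on arrays 1 and 2, against 6673 and 12558 in CD133-negative cells. Both CD133-positive values were below both CD133-negative values, and the intensity was higher on array 2 in both fractions. The ratio was -1.80 and -2.05 on arrays 1 and 2, with a mean of -1.93 ± 0.15, which is 3.81-fold lower in CD133-positive cells and rank 101 from the lowest. S100a6, or calcyclin, binds annexins and the calcyclin-binding protein. Its intensities were 52175 and 34825 in CD133-positive cells, against 117909 and 136451 in CD133-negative cells. The fractions did not overlap, and the gap was wider on array 2. The ratio of S100a6 was -1.18 and -1.97 on arrays 1 and 2, with a mean of -1.57 ± 0.24, or 2.98-fold lower in CD133-positive cells. In the deposited processed signals of the scanner program the same spot gave -0.96 and -1.61, so that the 2-fold line was not reached on array 1 there. The 250 bases before the start of each gene are shown for these genes with the lowest ratios of the 10, both on the plus strand, at chr3:90603520-90603769 for S100a4 and chr3:90612644-90612893 for S100a6 (RefSeq promoter table, GRCm38.p6). Capitals mark TATAAA in S100a4 and ATTGG, the reverse complement of CCAAT, in S100a6.
S100a4: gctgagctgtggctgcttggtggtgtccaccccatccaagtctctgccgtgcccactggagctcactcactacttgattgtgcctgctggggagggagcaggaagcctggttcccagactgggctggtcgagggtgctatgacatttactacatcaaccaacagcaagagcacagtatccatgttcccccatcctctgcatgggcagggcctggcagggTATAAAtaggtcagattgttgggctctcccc
S100a6: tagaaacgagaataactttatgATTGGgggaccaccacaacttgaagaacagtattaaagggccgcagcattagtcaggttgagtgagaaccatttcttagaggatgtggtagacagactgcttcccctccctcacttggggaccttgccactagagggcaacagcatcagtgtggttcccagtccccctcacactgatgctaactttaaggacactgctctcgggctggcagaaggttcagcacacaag
The TATAAA of S100a4 begins 31 bases before the start, and the ATTGG of S100a6 begins 228 bases before it. CCAAT occurred on either strand in 37.4% of all windows. Of the 6 motifs searched, TATAAA alone was found in the S100a4 window and CCAAT alone in that of S100a6.

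S100a10 and S100a11 are the classical annexin partners of the family. S100a10 forms a complex with annexin A2 and, unlike its relatives, has lost the ability to bind calcium, while S100a11 binds annexin A1. S100a10 had intensities of 11518 and 12549 in CD133-positive cells on arrays 1 and 2, against 11664 and 13618 in CD133-negative cells. The fractions overlapped, and the ratios of -0.02 and -0.12 averaged -0.07 ± 0.14. S100a11 had 6473 and 5645 in CD133-positive cells, against 10052 and 12483 in CD133-negative cells. Here the fractions did not overlap, with CD133-positive cells lower on both arrays. The ratios of S100a11 were -0.63 and -1.14 on arrays 1 and 2, and the mean was -0.89 ± 0.19, which is 1.85-fold lower in CD133-positive cells. The bases before the start of S100a11, on the plus strand at chr3:93520246-93520495 (RefSeq promoter table, GRCm38.p6), are shown because this window held more matches to the motifs searched than that of any other S100 gene. Capitals mark TGAGTCA, an AP-1 motif (searched as TGANTCA), and GGGCGG, a GC box.
S100a11: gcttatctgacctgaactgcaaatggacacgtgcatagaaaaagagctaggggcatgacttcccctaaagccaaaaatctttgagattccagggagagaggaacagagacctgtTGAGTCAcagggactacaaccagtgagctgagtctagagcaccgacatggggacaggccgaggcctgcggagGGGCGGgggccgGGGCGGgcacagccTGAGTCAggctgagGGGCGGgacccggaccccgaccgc
The AP-1 motifs begin 136 and 38 bases before the start and the GC boxes 64, 52 and 24 bases before it. TGANTCA occurred in 7.81% and GGGCGG in 35.7% of all windows, on either strand.

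**Figure D1:**
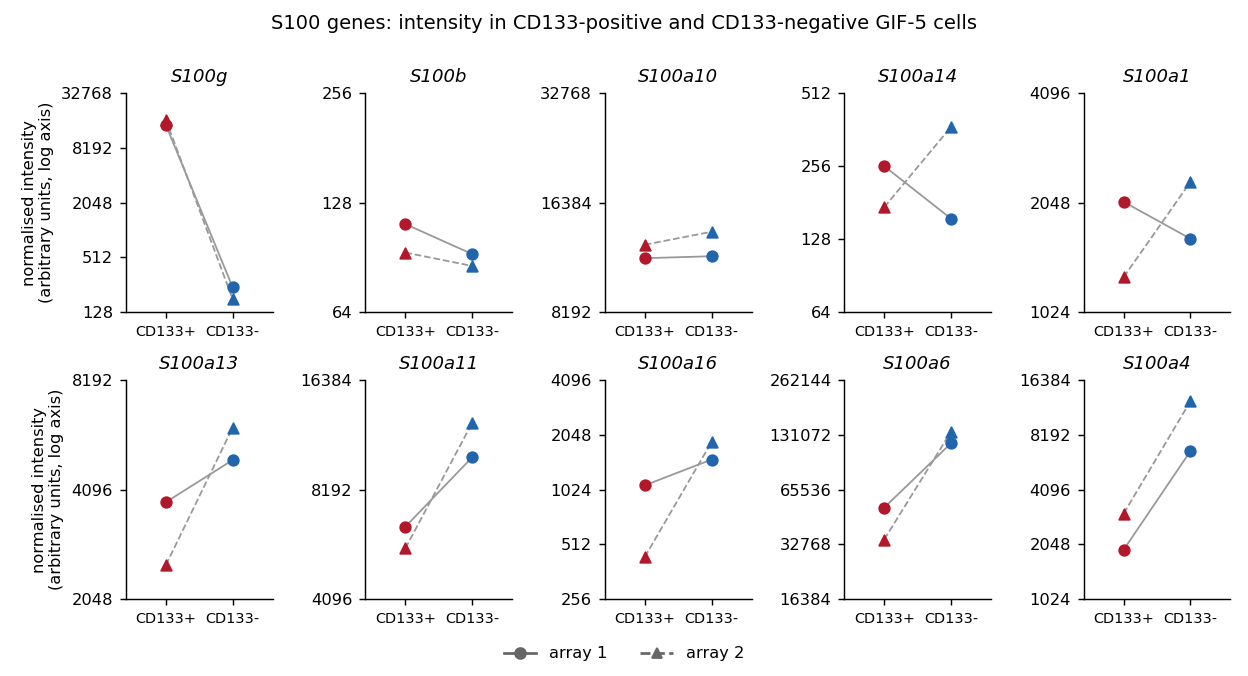
Normalised intensity (arbitrary units, log axis) of the 10 S100 genes in CD133-positive cells (left, red) and CD133-negative cells (right, blue), with circles and solid lines for array 1 and triangles and dashed lines for array 2. S100g runs steeply downward to CD133-negative cells on both arrays, S100a4 and S100a6 run upward on both, and the lines of S100a1 and S100a14 cross.

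S100a13 and S100a1 lie head to head on chromosome 3, with S100a1 on the minus strand and S100a13 on the plus strand. S100a13 takes part in the release of proteins that lack a signal peptide, such as fibroblast growth factor 1, and S100a1 regulates calcium cycling in muscle. S100a13 had intensities of 3783 and 2539 in CD133-positive cells on arrays 1 and 2, against 4941 and 6062 in CD133-negative cells. CD133-positive cells were lower on both arrays without overlap, and the ratios of -0.38 and -1.26 averaged -0.82 ± 0.26. Its probe position spans 8007 bases in the array's own annotation, whose build is not given, so the probe does not lie on 1 unbroken stretch there. S100a1 had 2058 and 1277 in CD133-positive cells, against 1629.5 and 2334 in CD133-negative cells. The fractions overlapped and the arrays went opposite ways, with ratios of 0.34 on array 1 and -0.87 on array 2 and a mean of -0.27 ± 0.34. The 104 bases between the annotated starts, chr3:90514331-90514434 on the plus strand (RefSeq promoter table, GRCm38.p6), are shown because both genes share them as upstream sequence. None of the 6 motifs searched occurred in the windows of either gene, so no base is in capitals.
between S100a1 and S100a13: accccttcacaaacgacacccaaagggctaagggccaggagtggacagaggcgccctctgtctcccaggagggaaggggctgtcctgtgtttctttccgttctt
Although both genes are read from this stretch in opposite directions, S100a13 was below 0 on both arrays and S100a1 on array 2 alone. The ratio of S100a1 was higher than that of S100a13 on both arrays, by 0.55 on average, which exceeds the combined standard error of 0.42.

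S100a14 and S100a16 are S100 proteins found in many epithelia. S100a14 had intensities of 256 and 173 in CD133-positive cells on arrays 1 and 2, against 155.5 and 371 in CD133-negative cells. The order of the fractions reversed between the arrays, with ratios of 0.72 on array 1 and -1.10 on array 2, and the mean of -0.19 ± 0.48 is smaller than its error. The spot was faint in Cy3, at 3.52 and 2.35 times its local background. S100a16 had 1082 and 436 in CD133-positive cells, against 1499.5 and 1870 in CD133-negative cells. CD133-positive cells were lower on both arrays, by little on array 1 (-0.47) and by 4.29-fold on array 2 (-2.10). Its mean of -1.29 ± 0.44 therefore rests mostly on array 2. The SD between the arrays was larger than that of 99.3% of all genes tested for S100a14 and of 99.0% for S100a16.

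S100b, a protein of glia and melanocytes, had the faintest spots relative to their surroundings. Its intensities were 112 and 93.3 in CD133-positive cells on arrays 1 and 2, against 92.4 and 85.7 in CD133-negative cells. The lower CD133-positive value and the higher CD133-negative value nearly met. The ratios of 0.27 and 0.12 averaged 0.20 ± 0.14. The Cy3 signal was 1.69 and 1.47 times and the Cy5 signal 2.21 and 1.81 times the local background, so the ratio is that of a probe close to the detection limit.

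As a family, the S100 genes spread over both directions. In CD133-positive cells, 6 of the 10 were lower on both arrays (39.7% of all genes tested were), 2 were higher on both (32.6%), and 2, S100a1 and S100a14, had opposite signs on the arrays (27.7%). S100a4 and S100a6 were at least 2-fold lower on both arrays (2.11% of all genes), and S100g was at least 2-fold higher on both (2.5%). By limma's adjusted p, 1.4% of all genes tested were called higher. Since the genes were chosen with this comparison known, nothing is read from these shares. The median over the 10 genes was -0.54, and over the 8 on chromosome 3 it was -0.86. In the order of the mean ratios, S100g was above S100b, S100b above S100a10, S100a1 above S100a13 and S100a6 above S100a4 on both arrays and by more than the combined standard error of each pair. The other neighbours in that order, S100a10 and S100a14, S100a14 and S100a1, S100a13 and S100a11, S100a11 and S100a16, and S100a16 and S100a6, did not meet both conditions. The combined standard error takes the genes of a pair as independent, though both were read on the same arrays. The pairs come from sorting on the same means, so the sign of each mean difference was fixed in advance. No ranking is read from these differences. With arrays centred on the median of the tested genes, S100a6 and S100a4 had -2.14 and -2.21. The mean ratio of S100b lay between 0.03 and 0.76 over the ways of processing.

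**Figure D2:**
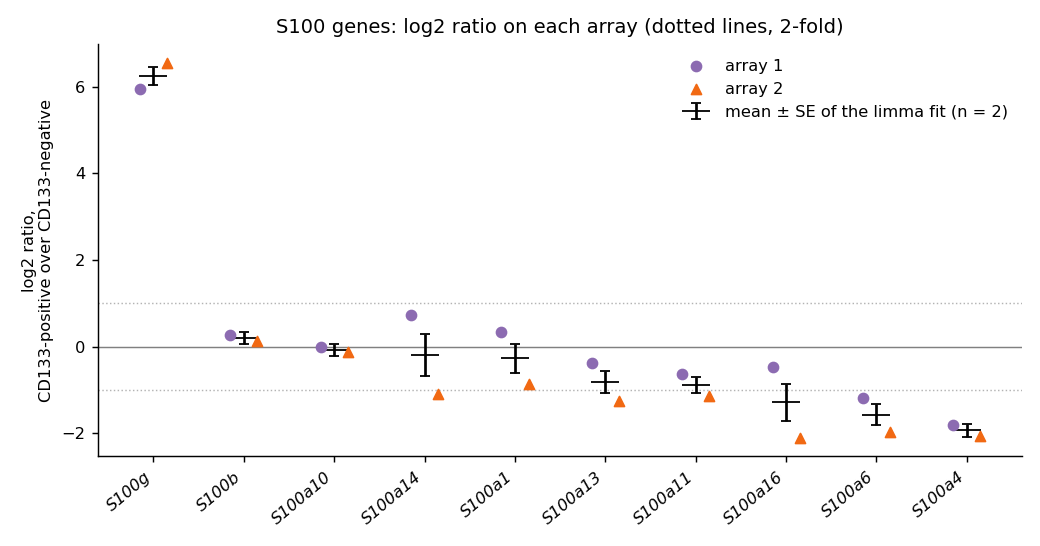
Log2 ratio of CD133-positive over CD133-negative cells for the 10 S100 genes in the order of their means, with circles for array 1, triangles for array 2, and bars for the mean ± SE of the limma fit (n = 2). S100g lies near 6 on both arrays, S100a4 and S100a6 lie below the lower 2-fold line on both, and S100a14, S100a16 and S100a1 show the widest gaps between the arrays.

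The arrays differed for this family mostly in 1 direction. The ratio was lower on array 2 than on array 1 for 9 of the 10 genes, S100g being the exception, and for 56.7% of all genes tested. The median difference, array 2 minus array 1, was -0.65 over the S100 genes and -0.06 over all genes. Ratios were spread more widely on array 2 in general, with an SD over all genes of 0.60 on array 1 and 0.76 on array 2. On array 1, 2 S100 genes were at least 2-fold lower in CD133-positive cells (2.66% of all genes tested), and on array 2, 6 were (7.91%), namely S100a4, S100a6, S100a11, S100a13, S100a14 and S100a16. For S100a16 the difference lay mainly in CD133-positive cells, whose intensity was 1.31 lower on the log2 scale on array 2, with CD133-negative cells 0.32 higher. For S100a14 it lay more in CD133-negative cells, which were 1.26 higher on array 2, with CD133-positive cells 0.56 lower. S100a4 was 0.66 higher on array 2 in CD133-positive cells and 0.91 higher in CD133-negative cells, so that its ratio changed by 0.25 alone. Per the file headers the arrays share 1 slide and 1 scan time, so no slide or scan can be compared.

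**Figure D3:**
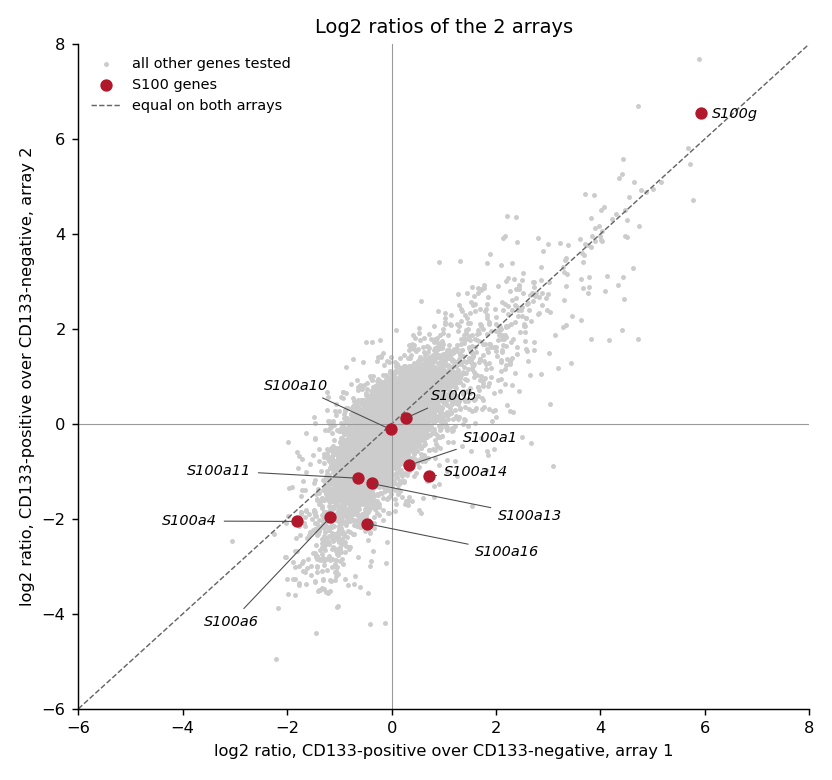
Log2 ratio of CD133-positive over CD133-negative cells on array 2 (vertical axis) against array 1 (horizontal axis), with each grey point a gene tested and red points the 10 S100 genes. S100g stands far up along the dashed line of equality, and the 9 other S100 genes lie below the line.

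On chromosome 3, 15 S100 genes stand in a row in the RefSeq gene table, 8 of them among the genes described above. The other tested S100 genes of this row were S100a3 and S100a7a (named S100a15 in the files and matched by accession). S100a3, an S100 protein of hair follicles, had intensities of 238 and 155 in CD133-positive cells, against 582 and 574 in CD133-negative cells. S100a7a, a skin gene related to the antimicrobial psoriasin, had 114 and 99.1 in CD133-positive cells, against 272 and 274 in CD133-negative cells. Both were lower in CD133-positive cells on both arrays without overlap, by -1.59 ± 0.20 for S100a3 and -1.36 ± 0.15 for S100a7a. Neither passed the limma threshold of 0.05, with adjusted p = 0.0637 for S100a3 and 0.0509 for S100a7a. S100pbp, whose human protein is named for binding an S100 protein, had a ratio of -0.77 ± 0.15 (limma adjusted p = 0.0887), and its second, dimmer probe gave -0.12 and -0.25 on arrays 1 and 2. Thus 0 of these 3 tested genes were called by limma (1.68% of all genes were), and 3 had an unadjusted p under 0.05, as did 27.9% of all genes tested. The genes of the neutrophil alarmin calprotectin were at background, S100a9 in all 4 channels and S100a8 on array 1, with S100a8 just above it in both fractions on array 2. S100a5 and S100a7l2 were not above background in any channel, and none of the 6 S100-fused genes with a probe, such as Flg, which encodes the skin barrier protein filaggrin, was.

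Genes of other families, many of them of the skin barrier, lie between the outermost S100 genes of this row. Of these 86 genes, 42 had a probe and 13 were tested. None was called by limma, and 3 had an unadjusted p under 0.05 (27.9% of all genes did). Their median ratio was 0.03, against -0.86 for the 8 S100 genes described here. Several of the 13 were faint, so these medians are not a like comparison. Lce1l, whose ratio is the median, had 96.0 and 94.6 in CD133-positive cells, against 92.0 and 94.4 in CD133-negative cells. Lce1g and Crct1 did not clear the background in CD133-positive cells. The cornified envelope gene Lor had a ratio of 3.11 ± 0.38 (limma adjusted p = 0.061). Sprr1a, another envelope precursor, had -1.89 ± 0.32 (limma adjusted p = 0.0814), and its relatives Sprr2a1 and Sprr2e had -0.56 ± 0.22 and 0.44 ± 0.14. Within the row, ratios below -1 were found from S100a16 to S100a7a, for S100a16, S100a3, S100a4, S100a6 and S100a7a in chromosome order, and S100a10 at the far end stayed near 0.

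**Figure D4:**
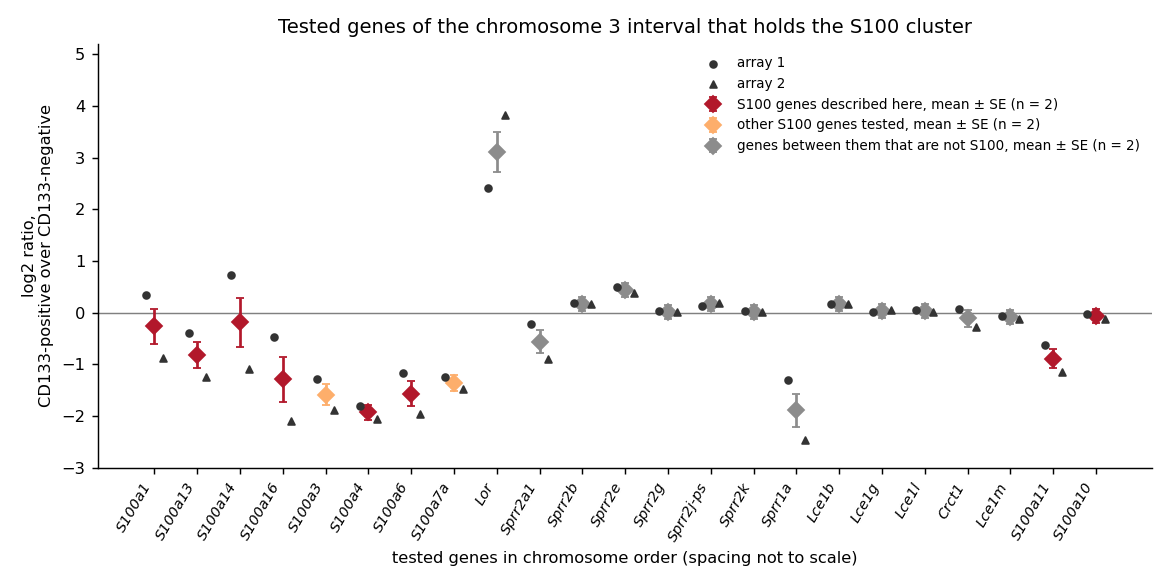
Log2 ratio of CD133-positive over CD133-negative cells for the tested genes of the chromosome 3 interval that holds the S100 genes, in chromosome order with spacing not to scale; diamonds with bars are the mean ± SE (n = 2), circles array 1 and triangles array 2. S100 genes (red and orange) lie at or below 0 on average, and most of the grey genes between them lie near 0, apart from Lor above and Sprr1a below.

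Among 17 tested genes of intracellular S100 partners, 2 were called by limma, both lower (0.275% of all genes were called lower), and 8 had an unadjusted p under 0.05 (27.9% of all genes did). Ahnak, a giant scaffold protein that binds the complex of S100a10 and annexin A2, had intensities of 6048 and 5519 in CD133-positive cells, against 20623 and 24069.7 in CD133-negative cells. It fell by 1.95 ± 0.16 on the log2 scale (limma adjusted p = 0.0336). Myh9, the non-muscle myosin heavy chain bound by S100a4, had 15686 and 14979 in CD133-positive cells, against 39654 and 44452 in CD133-negative cells. It fell by 1.45 ± 0.15 (limma adjusted p = 0.0463). For both genes the fractions were apart on both arrays, but not all of their other probes matched in size or sign. Ahnak probes with means of -1.90, -1.74 and -1.51 were also at least 2-fold lower on both arrays. The smallest mean among the tested Ahnak probes was -0.70, and another Ahnak probe gave 0.11 on array 1 and -1.69 on array 2. The second Myh9 probe gave -0.51 and 0.01. With the dimmest tested probe in place of the brightest, neither gene passed (limma adjusted p = 0.125 for Ahnak and 0.488 for Myh9), nor did Myh9 with the deposited processed signals (limma adjusted p = 0.0758). The annexin genes had ratios below 0 that did not pass, at -1.71 ± 0.42 for Anxa6, -1.06 ± 0.19 for Anxa1, the partner of S100a11, and -0.65 ± 0.24 for Anxa2, the partner of S100a10. Plat, which encodes the plasminogen activator that the annexin A2 complex binds, had -0.83 ± 0.15. Of the 8 genes, 2 had ratios above 0, namely Mdm2 (0.52 ± 0.16), which encodes a ubiquitin ligase of p53, and the growth factor gene Fgf1 (0.48 ± 0.15), and neither was called. The median of the list was -0.30.

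None of the 7 genes of S100 receptors was called by limma, and 2 had an unadjusted p under 0.05 (27.9% of all genes did). Ager, which encodes the receptor RAGE, had a ratio of -0.06 ± 0.14. The adhesion molecule Mcam had -0.79 ± 0.14, the immunoglobulin-like receptor Nptn -0.53 ± 0.15, Bsg 0.47 ± 0.22 and the scavenger receptor Cd36 -0.23 ± 0.18. The median of the receptors was -0.06.

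Of 28 tested genes of other EF-hand proteins, limma called 0, with 7 at an unadjusted p under 0.05 (27.9% of all genes) and a median of -0.15. The myosin light chain Myl9 had the largest ratio, 2.36 ± 0.56, with 3.43 on array 1 and 1.28 on array 2. The actin bundler Lcp1 had 1.63 ± 0.40, the reticulocalbin Rcn3 1.21 ± 0.24, and the calpain Capn2 -0.59 ± 0.14. For the vitamin D and calcium transport genes, which are the textbook companions of S100g in absorptive cells, limma called 0 of 7 tested, with 3 at an unadjusted p under 0.05 (27.9% of all genes). Vdr, which encodes the vitamin D receptor, had intensities of 77.7 and 67.5 in CD133-positive cells, which did not clear the background there, against 92.5 and 93.3 in CD133-negative cells (limma adjusted p = 0.215). Its dimerisation partner Rxra had -1.62 ± 0.34, the claudins Cldn2 and Cldn12 had -1.15 ± 0.44 and 0.60 ± 0.14, and the sodium-calcium exchanger Slc8a1 had -0.46 ± 0.14. Also tested were Atp2b1 (0.24 ± 0.16) and Cyp27b1 (0.08 ± 0.14). The calcium channel genes Trpv5 and Trpv6, the larger calbindin gene Calb1 and the vitamin D target Cyp24a1 were not above background in any channel. Whether the genes of this list bear on the S100g values was not tested.

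Markers of cell types were measured beside the S100 genes, and their part in the S100 values was not tested. Of 15 genes of gastric epithelium, 11 were tested and 2 rose (1.4% of all genes did), Gkn2 by 5.60 ± 0.15 and Tff1 by 4.40 ± 0.15, both secreted by surface mucous cells (limma adjusted p = 0.0095 for each). Of the 11, 7 had an unadjusted p under 0.05 (27.9% of all genes did), and their median ratio was 0.79. On both arrays 7 were above 0 and 3 below. Uncalled genes above 0 on both were Tff2 (2.71 ± 0.35, limma adjusted p = 0.0632), Gkn1 (1.02 ± 0.38), Pgc (0.95 ± 0.36), Cldn18 (0.79 ± 0.15) and Cdh1 (0.42 ± 0.21). The keratin genes Krt8, Krt18 and Krt19 had ratios of -0.78 ± 0.14, -0.54 ± 0.15 and -0.79 ± 0.15 and were well measured. Atp4a and Cblif of parietal and other gland cells were not above background in any channel. The summed intensity of the list was 351753 and 246755 in CD133-positive cells, against 325781 and 333872 in CD133-negative cells. S100a4 marks fibroblasts and S100b marks glia and melanocytes in tissue. Of the 7 fibroblast genes, Dcn, Pdgfra and Pdgfrb were not above background in any channel. Limma called 0 of 3 tested (1.68% of all genes were called). Among them 1, Col1a1 (-1.25 ± 0.18), had an unadjusted p under 0.05 (27.9% of all genes did). The fibroblast sum was 8438 and 9097 in CD133-positive cells, against 7711 and 8613 in CD133-negative cells. It was nearly all Acta2, which smooth muscle also expresses. Acta2 had 8238 and 8920 in CD133-positive cells, against 7403 and 8270.3 in CD133-negative cells. Col1a1 alone had 111 and 93.9 in CD133-positive cells, against 226 and 261 in CD133-negative cells. The glial genes Sox10 and Gfap and the melanocyte gene Tyr were not above background. Limma called none of the 3 tested genes of either list (1.68% of all genes were called). The melanocyte gene Dct was the single one with an unadjusted p under 0.05 (27.9% of all genes), with limma adjusted p = 0.0667. Dct did not clear the background in CD133-negative cells and was at least 4.63-fold higher in CD133-positive cells. The glial sum was 4541 and 4945 in CD133-positive cells, against 4857 and 4843 in CD133-negative cells, nearly all of it from Mbp. The melanocyte sum was 393 and 557 in CD133-positive cells, against 273 and 236 in CD133-negative cells. Of it, Dct gave 176 and 384 in CD133-positive cells, against 55.4 and 56.7 in CD133-negative cells. The other tested melanocyte genes, Mlana and Pmel, had ratios of -0.14 ± 0.14 and 0.05 ± 0.14. The blood genes Ptprc and Itgam were not above background. Limma called 0 of 5 tested (1.68% of all genes were called), and 2 had an unadjusted p under 0.05 (27.9% of all genes). These went opposite ways, Csf1r at -0.87 ± 0.14 and Lcp1 at 1.63 ± 0.40. The blood sum was 619.5 and 713 in CD133-positive cells, against 599.8 and 496 in CD133-negative cells. Of it, Lcp1 gave 171 and 380 in CD133-positive cells, against 93.0 and 73.5 in CD133-negative cells. Of 4 endothelial genes, Kdr, Pecam1 and Tek were not above background. The 1 tested, Cdh5, rose by 2.61 ± 0.25 (limma adjusted p = 0.0425, at least 5.81-fold), and 1.4% of all genes were called higher. Cdh5 had 236 and 434 in CD133-positive cells, against 51.3 and 53.6 in CD133-negative cells, where it did not clear the background. The second, dimmer Cdh5 probe gave 1.23, with which Cdh5 was not called (limma adjusted p = 0.0915).

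The genes whose pair of ratios on arrays 1 and 2 was nearest to that of S100g, by Euclidean distance over the 2 arrays, were the keratin gene Krt23 (distance 0.78), Gkn2 (1.10) and the complement factor gene Cfi (1.13). Krt23 had ratios of 5.68 and 5.81, Gkn2 5.72 and 5.47, and Cfi 5.88 and 7.68 on arrays 1 and 2. Nearest to S100a4 were Ahnak (0.08), the transcript TC1413629, which has no gene name in the files (0.11), and the zinc-finger gene Zfpm2 (0.13). Ahnak had ratios of -1.77 and -2.12, TC1413629 -1.76 and -2.15, and Zfpm2 -1.68 and -2.10.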

How the data were processed

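Two-colour Agilent arrays were analysed, 2 in number, with 45018 spots each. Per the file headers, Agilent Feature Extraction 9.5.3.1 gave the deposited spot and local background intensity, the processed signals and the log10 ratio of red over green; the deposited value table repeats this log10 ratio for every spot. The deposited p-value of a spot, from that program's error model for 1 array per the file headers, was not used. Spot intensities were corrected by normexp (offset 50) and normalised within arrays by loess, with control spots at weight 0, and levels per channel were then scaled between arrays by Aquantile. The log2 ratio of CD133-positive over CD133-negative cells was computed from the deposited intensity. Spots of a probe were averaged. Of 41174 non-control probes, 23174 were tested, being clearly above background on both arrays in at least 1 channel (the same one), with no outlier flag. The brightest tested probe stood for a gene. Probes were named through accession (22951), symbol (6659) or synonym (3109) in a RefSeq gene table, and 8455 kept the name in the files.

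Tests were run in limma 3.58.1 under R 4.3.3 (empirical Bayes, 2.87 prior degrees of freedom, two-sided, Benjamini-Hochberg over 15267 genes, threshold 0.05), checked on simulated data. A called gene has an adjusted p under that threshold, which 256 genes had, 214 higher and 42 lower. The number of arrays limits the precision. No spot was saturated. A bound ("at least") sets the brighter fraction's mean against, per array, the higher of the lowest signal well above background and the dim probe's own. Named genes were the 10 S100 genes, Prom1, and from each list the called genes and up to 4 with the largest ratios of 1 direction, plus the 3 genes nearest to S100g and to S100a4; others are named where a count is spelled out, chosen after their values were seen. The S100 genes, the lists and the motifs were chosen with earlier results of these data known. Promoter windows were found for 8 of the 10 S100 genes, and S100a10 and S100a14 had none. Protein sequences were not used here.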

Additional observations from a re-analysis of the deposited data

How the results depend on the processing

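No S100 gene changed the sign of its mean ratio under the 6 other ways of background correction and normalisation tried, also relative to the median of all genes; the 4 changes of filter or of probe choice could not move these genes, which have 1 probe each. S100g stayed at least 2-fold higher on both arrays in each. S100a1 and S100a14 were above 0 on array 1 alone. The count of S100 genes at least 2-fold lower was 2, against 6 with arrays centred on the median of all probes, 1 with the processed signals and 1 with the value table, and it lay between 2 and 6 when 1 array was left out (6 without array 1). Centring on all probes moved the median of all genes to -0.74.

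The 256 calls, 83.6% higher, became 559 with a normexp offset of 16 (71.9% higher), 10107 when centred on all probes (4.79%), 4007 when centred on the tested genes (60.8%), 483 with the processed signals and 483 with the value table (80.7% each), 509 with scaling between arrays (62.3%), 383 with no background correction (71.5%), 30 with no filter on dim probes (100% higher), 156 with the dimmest tested probe (92.3%), 837 with an intensity trend in the variance (59.9%) and 1401 with the 4 channels as separate samples (49.1%). With no moderation limma called 0, with 1506 genes at an unadjusted p under 0.05.

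Tested in the S100-related lists were 3 other S100 genes, 7 receptors, 17 partners and 28 other EF-hand genes. Also tested were 7 vitamin D and calcium transport genes and 13 genes between the S100 genes. The lists held 2 calls, 0 higher and 2 lower (1.68% of all genes were called). The count was 5 (1 higher, 4 lower) with no background correction, with offset 16 and with scaling between arrays, 56 (4 higher, 52 lower) centred on all probes, 27 (10 higher, 17 lower) centred on tested genes, 4 with the processed signals and the value table (2 higher, 2 lower) and with the filter for both channels (1 higher, 3 lower), 1 higher with the dimmest probe, 1 lower with the mean over probes, 6 (1 higher, 5 lower) with the trend and 7 (1 higher, 6 lower) with 4 channels. It was 0 with no filter (34 at an unadjusted p under 0.05) and 0 with no moderation (12). Beside these counts stand those over all genes given above, such as 10107 of 15267 genes centred on all probes. Over all genes, the filter for both channels gave 302 calls of 13776 and the mean over probes 253 of 15267. Ahnak was called in 10 and Myh9 in 8 of 14 such fits, with adjusted p between 0.0064 and 0.505 for Ahnak and between 0.0072 and 0.50 for Myh9. Gkn2 and Tff1 were called in 13 of the 14, and Cdh5 in 10 of the 13 that tested it. The causes were not tested. The main test is itself paired, because each array holds both fractions and the ratio is the paired difference.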
